A study of Mus musculus with 9 samples.

Results

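The genes described here are feedback inhibitors and transcription factors of the canonical Wnt pathway: *Axin2*, *Nkd1*, *Znrf3*, *Rnf43* and *Apcdd1* on the inhibitory side, and *Ctnnb1*, *Lef1*, *Tcf7*, *Tcf7l1* and *Tcf7l2* on the transcriptional side. They were taken by symbol from a table of 14670 genes. Of the 10 genes named, 9 are listed there, each as a single entry, and *Rnf43* was not analysed here. Their expression was compared over 3 genotypes of mouse embryonic cortex.

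RNA from the cerebral cortex of embryos at embryonic day 16.5 was sequenced in 9 libraries, 3 per genotype. The study asked what the loss of *Celsr3* or *Fzd3*, membrane proteins known for axon guidance and planar cell polarity, does to the developing cortex. The labels give the genotypes as Control (+/+), *Fzd3* -/- mutant and *Celsr3* -/- mutant. According to the methods, animals were of a mixed C57Bl/6 and CD1 background and controls could be heterozygous or wild-type littermates, whereas the labels give controls as wild type. The labels name Trizol for RNA extraction and the methods an RNeasy kit. Replicates are numbered 1 to 3 in controls and *Fzd3* mutants, and 1, 2 and 4 in *Celsr3* mutants. The methods give 3 samples of tissue per genotype and, for animal experiments in general, a minimum of 3 animals. They do not say for these libraries that each came from a separate embryo, so P values measure only the spread between these samples.

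In canonical Wnt signalling, a ligand bound to a Frizzled receptor stops a destruction complex built on Axin and *Apc* from degrading beta-catenin, the product of *Ctnnb1*. Beta-catenin then enters the nucleus and joins DNA-binding proteins of the TCF/LEF family, of which *Tcf7l1* mostly acts as a repressor. Several targets, among them *Axin2*, *Nkd1*, *Znrf3*, *Rnf43* and *Apcdd1*, code for proteins that dampen the signal, and in the embryonic cortex the pathway is known for its part in progenitor proliferation and in patterning near the midline.

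Values are CPM (reads of a gene relative to all reads of its library, in the scaling of the authors). Low values in each column were whole multiples of a smallest step, for 100% of values up to 200 steps within 0.02 of a step, and this step was read as 1 read. That reading is not certain for scaled values, and all read numbers given here and the voom weights rest on it. Counted this way, reads on listed genes numbered 52266343, 61637621 and 39857305 in control libraries 1, 2 and 3. The *Fzd3* mutants held 42963627, 45848829 and 52249430, within the control range. *Celsr3* mutant libraries 1, 2 and 4 had 60333846, 54974978 and 69600589, so that every *Celsr3* mutant library was deeper than every *Fzd3* mutant library. A gene at 3 reads would stand at 0.0427 to 0.0752 CPM depending on the library, a floor that covers counting error only. The lowest of the 9 genes, *Tcf7*, still had 115 to 275 reads per library, and the highest, *Ctnnb1*, 42325 to 89526.

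Differences were tested with limma on log2(CPM + 0.5), where the added 0.5 makes fold changes of weakly expressed genes look smaller. All P values are two-sided. The correction was that of Benjamini and Hochberg over the 14670 genes, and a gene passed at an adjusted P under 0.05. An exact permutation test of 3 libraries against 3 cannot give a P below 0.1.

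The mutated genes were examined first. *Celsr3* stood at 196, 243 and 214 CPM in controls, at 253, 213 and 255 CPM in *Fzd3* mutants and at 122, 139 and 118 CPM in *Celsr3* mutants. Every *Celsr3* mutant library was thus below all other libraries (log2 fold change against control -0.78, s.e. 0.0910, limma adjusted P = 0.0018). The call was lost in 2 of 22 alternative fits, with an adjusted P of up to 0.177. *Fzd3* stood at 58.0, 67.7 and 46.9 CPM in controls, at 46.5, 39.8 and 59.6 CPM in *Fzd3* mutants and at 52.1, 61.1 and 54.8 CPM in *Celsr3* mutants. These ranges overlapped (-0.24 in *Fzd3* mutants, s.e. 0.147, limma adjusted P = 0.240). Because only a part of *Fzd3* is removed in the mutant allele and the table holds a value for the whole gene, this level does not check the labels.

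Libraries resembled their group over all genes, but *Celsr3* mutant library 4 stood apart in a set of markers. Over all genes on the log2 scale, Pearson correlations were 0.994 to 0.997 within the *Fzd3* mutants and 0.975 to 0.986 between them and the other 6 libraries. They were 0.9924 to 0.9945 within controls, 0.9934 to 0.9937 within *Celsr3* mutants and 0.9891 to 0.9932 between these 2 genotypes, which thus hardly separated. In *Celsr3* mutant library 4, the summed level of 5 listed markers of meninges and fibroblasts was 175 CPM, against 15.2 and 15.3 CPM in the other *Celsr3* mutants, 10.5 to 16.2 CPM in controls and 14.7 to 21 CPM in *Fzd3* mutants. Their most abundant gene over all libraries, *Col3a1*, stood at 87.6 CPM in that library and at no more than 6.86 CPM in the others. For some genes, values for *Celsr3* mutants are therefore also given without library 4, or as a range over fits that leave out each library in turn.

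In *Fzd3* mutants, 5 of the 9 genes passed the threshold, 4 of them lower and 1 higher. *Tcf7l1*, *Nkd1*, *Tcf7l2* and *Ctnnb1* were lower, by as much as 2.59-fold for *Tcf7l1*, and *Apcdd1* was higher. Of all genes, 29.8% passed in this comparison, 14.8% lower and 15.0% higher. *Fzd3* mutant and control libraries did not overlap for 6 of the 9 genes, against 43.8% of all genes. In *Celsr3* mutants 0 of the 9 passed in the limma fit, where 0.307% of all genes did. None reached an unadjusted P of 0.05 there either, compared with 800 of the 14670 genes, and weighting by reads (limma voom) also gave 0. The median log2 fold change of the 9 genes was -0.27 in *Fzd3* mutants and 0.01 in *Celsr3* mutants, and the median of all genes was 0.00 in each. Both comparisons use the same 3 control libraries. The *Celsr3* mutant median includes library 4, which was the highest of all libraries for 7 of the 9 genes.

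**Figure D1:**
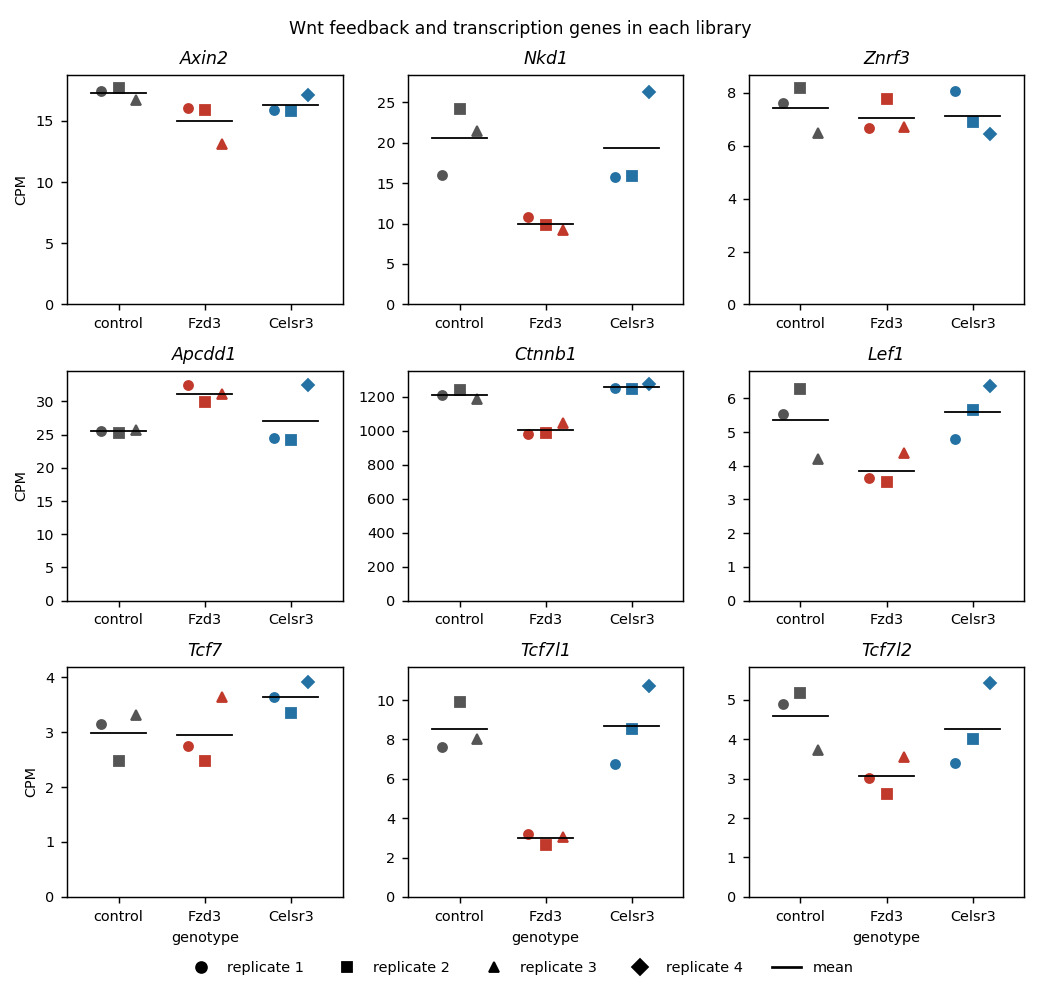
CPM of the 9 genes (vertical axes, from 0) in each library, by genotype. Symbols give the replicate number and bars the mean of 3 libraries. *Tcf7l1* and *Nkd1* lie lower in all 3 *Fzd3* mutant libraries than in any other library, and *Celsr3* mutant library 4 is the highest of the 9 for *Nkd1*, *Tcf7l1* and *Tcf7l2*.

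Among the feedback inhibitors, *Nkd1*, which binds Dishevelled and holds back its signalling, changed most. *Nkd1* is listed as XLOC_031832 and lies at chr8:88521354-88594884 of GRCm38, on the plus strand. Its level was 16.0, 24.2 and 21.5 CPM in controls, 10.8, 9.78 and 9.22 CPM in *Fzd3* mutants and 15.7, 15.9 and 26.2 CPM in *Celsr3* mutants. All *Fzd3* mutant libraries were below all others, while control and *Celsr3* mutant libraries were spread over one another, with library 4 the highest of the *Celsr3* mutants. The decrease in *Fzd3* mutants was 51.8% of the control mean (log2 fold change -0.998, s.e. 0.189, limma adjusted P = 0.00283) and passed in 22 of 22 alternative fits. In *Celsr3* mutants the log2 fold change was -0.11 (s.e. 0.189, limma adjusted P = 1.00), and -0.35 without library 4 (limma adjusted P = 0.999).

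*Apcdd1* codes for a membrane protein that binds Wnt and its receptor at the cell surface and blocks them. It is listed as XLOC_014809 and stood at 25.5, 25.3 and 25.7 CPM in controls, at 32.4, 30.0 and 31.1 CPM in *Fzd3* mutants and at 24.5, 24.1 and 32.5 CPM in *Celsr3* mutants. The controls were close together and all 3 *Fzd3* mutants lay above them, as did *Celsr3* mutant library 4. *Apcdd1* was higher in *Fzd3* mutants by 0.28 on the log2 scale (s.e. 0.0980), with a limma adjusted P of 0.0489 near the threshold. The call was lost in 9 of 22 alternative fits, in each fit that left out a control or *Fzd3* mutant library (0.0795 to 0.145), and with eBayes without a trend, ordinary variances or voom weights (0.0654 to 0.130). Over all 22 fits the adjusted P ranged from 0.00440 to 0.145. In *Celsr3* mutants the log2 fold change of *Apcdd1* was 0.07 (s.e. 0.0980) and did not pass. It ranged from -0.07 to 0.15 when each library was left out in turn. The log2 difference between the mutants was 0.21 (s.e. 0.0980, limma adjusted P = 0.128) with all libraries and 0.35 without *Celsr3* mutant library 4 (limma adjusted P = 0.00452).

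*Axin2* is a scaffold of the destruction complex and a target used widely as a readout of the pathway. It is listed as XLOC_004704 at chr11:108920349-108950783, on the plus strand. Levels were 17.4, 17.7 and 16.7 CPM in controls, 16.1, 15.9 and 13.1 CPM in *Fzd3* mutants and 15.9, 15.8 and 17.1 CPM in *Celsr3* mutants. All *Fzd3* mutant libraries were below all controls, narrowly so at the nearest pair, and they overlapped the *Celsr3* mutants. The log2 fold change of -0.20 in *Fzd3* mutants (s.e. 0.0848) did not pass (limma adjusted P = 0.101), nor did it in any of 22 alternative fits. With all libraries its 95% confidence interval ran from -0.39 to -0.01. Without *Fzd3* mutant library 3, the lowest of the 9, it was -0.11 (limma adjusted P = 0.305). In *Celsr3* mutants it was -0.08 (s.e. 0.0848, limma adjusted P = 1.00).

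*Znrf3*, a ubiquitin ligase that removes Frizzled receptors from the membrane, is listed as XLOC_004912. It stood at 7.61, 8.19 and 6.50 CPM in controls, at 6.67, 7.77 and 6.70 CPM in *Fzd3* mutants and at 8.07, 6.89 and 6.46 CPM in *Celsr3* mutants. The 3 ranges lay over one another. Its log2 fold changes were -0.07 and -0.05 (s.e. 0.118 for each), with 95% confidence intervals from -0.33 to 0.19 in *Fzd3* mutants and from -0.31 to 0.21 in *Celsr3* mutants.

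*Ctnnb1* codes for beta-catenin, which serves both in transcription and at adherens junctions. It is listed as XLOC_033692 at chr9:120929216-120960507, on the plus strand, 12.1 Mb from *Celsr3* on the same chromosome. *Ctnnb1* stood at 1208, 1240 and 1189 CPM in controls, at 983, 989 and 1044 CPM in *Fzd3* mutants and at 1254, 1245 and 1275 CPM in *Celsr3* mutants. The libraries of the 3 genotypes did not overlap, with the *Fzd3* mutants lowest. The decrease in *Fzd3* mutants was 17.1% (log2 fold change -0.27, s.e. 0.0390, limma adjusted P = 0.000568), and it passed in 22 of 22 alternative fits. The *Celsr3* mutants were 3.74% above the control mean (log2 fold change 0.05, s.e. 0.0390, limma adjusted P = 1.00). Exons of *Ctnnb1* share 759 bases with exons of *Ulk4* on the opposite strand, and reads there cannot be told apart because the use of strand is not given in the sources used here. The same holds for exons of predicted genes on the opposite strand of *Lef1* (1208 shared bases), *Axin2* (209) and *Tcf7l1* (179).

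*Tcf7l1*, the family member best known as a repressor that keeps targets silent without beta-catenin, had the largest log2 fold change of the 9 genes. It is listed as XLOC_027609 at chr6:72626378-72789254, on the minus strand. Its level was 7.63, 9.90 and 8.03 CPM in controls, 3.21, 2.66 and 3.05 CPM in *Fzd3* mutants and 6.75, 8.54 and 10.7 CPM in *Celsr3* mutants. The highest *Fzd3* mutant library was below the lowest of the other 6 libraries. The log2 fold change in *Fzd3* mutants was -1.37 (s.e. 0.158, 95% confidence interval -1.72 to -1.02, limma adjusted P = 0.000147). It passed in 22 of 22 alternative fits and lay between -1.53 and -1.26 over them. In *Celsr3* mutants the log2 fold change was 0.01 (s.e. 0.158), and -0.15 without library 4 (limma adjusted P = 0.999).

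*Lef1* and *Tcf7l2* are further DNA-binding partners of beta-catenin, and *Lef1* is itself a known target of the pathway. *Lef1* (XLOC_020448, chr3:131110471-131224356, plus strand) stood at 5.53, 6.29 and 4.21 CPM in controls, at 3.62, 3.52 and 4.37 CPM in *Fzd3* mutants and at 4.79, 5.64 and 6.35 CPM in *Celsr3* mutants. Control library 3 was within the *Fzd3* mutant range, and all *Celsr3* mutants were above all *Fzd3* mutants. The log2 fold change of *Lef1* in *Fzd3* mutants, -0.42 (s.e. 0.154, limma adjusted P = 0.0613), did not pass. It passed in 3 of 21 alternative fits, with quantile normalization (limma adjusted P = 0.0297), without control library 3 (0.0163) and without *Fzd3* mutant library 3 (0.0450), and over the 21 the adjusted P ranged up to 0.213.

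*Tcf7l2* (XLOC_015730, chr19:55741820-55933654, plus strand) stood at 4.89, 5.17 and 3.71 CPM in controls, at 3.02, 2.61 and 3.55 CPM in *Fzd3* mutants and at 3.39, 3.99 and 5.41 CPM in *Celsr3* mutants. *Fzd3* mutants lay below controls, narrowly so between *Fzd3* mutant library 3 and control library 3. The log2 fold change in *Fzd3* mutants was -0.51 (s.e. 0.177, limma adjusted P = 0.0484). The call was lost in 10 of 21 alternative fits, among them those without control library 1 or 2, *Fzd3* mutant library 1 or 2, or *Celsr3* mutant library 2, where the adjusted P was 0.0634 to 0.158. Over the 21 the log2 fold change stayed between -0.64 and -0.42. In *Celsr3* mutants the log2 fold change of *Tcf7l2* was -0.11 (s.e. 0.177) and did not pass. It ranged from -0.27 to 0.03 when each library was left out in turn.

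*Tcf7*, a further member of the family, is listed as XLOC_005252 and had the lowest CPM of the 9. It stood at 3.14, 2.48 and 3.31 CPM in controls, at 2.74, 2.48 and 3.65 CPM in *Fzd3* mutants and at 3.64, 3.36 and 3.92 CPM in *Celsr3* mutants. The *Fzd3* mutant range overlapped those of the controls and of the *Celsr3* mutants, with *Fzd3* mutant library 3 above every control, and all *Celsr3* mutants lay above the controls. Neither log2 fold change passed, at -0.01 in *Fzd3* mutants (s.e. 0.152, limma adjusted P = 0.954) and 0.26 in *Celsr3* mutants (s.e. 0.152, limma adjusted P = 0.992). Control and *Celsr3* mutant libraries did not overlap for 2 of the 9 genes, *Tcf7* and *Ctnnb1*, against 10.4% of all genes.

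**Figure D2:**
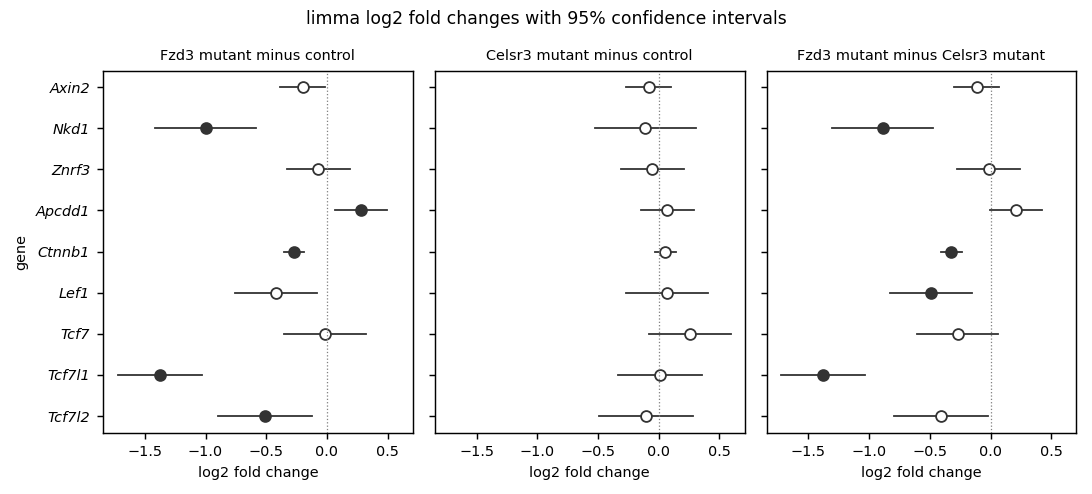
Log2 fold changes of the 9 genes (horizontal axes) in the 3 comparisons of a single limma fit, with 95% confidence intervals. Filled points passed an adjusted P of 0.05. In *Fzd3* mutants *Tcf7l1* lies at -1.37 and *Nkd1* at -0.998, and in *Celsr3* mutants all 9 intervals include 0.

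The direct comparison of the mutants addressed whether these genes differed between the losses of *Fzd3* and *Celsr3*. Of the 9 genes, 4 passed, all lower in *Fzd3* mutants, against 29.6% of all genes in either direction and 14.3% lower. The log2 difference was -1.38 for *Tcf7l1* (s.e. 0.158, limma adjusted P = 0.000185), -0.89 for *Nkd1* (s.e. 0.189, limma adjusted P = 0.00543), -0.49 for *Lef1* (s.e. 0.154, limma adjusted P = 0.0343) and -0.32 for *Ctnnb1* (s.e. 0.0390, limma adjusted P = 0.000243). *Tcf7l2*, at -0.41 (s.e. 0.177), did not pass (limma adjusted P = 0.107), and was at -0.24 without *Celsr3* mutant library 4, where it did not pass either. The depth of the libraries did not overlap between these genotypes, and with the log2 of the reads as a covariate, an alternative chosen after seeing the data, the number fell from 4 to 2. *Nkd1* then had a limma adjusted P of 0.0844 and *Lef1* of 0.503, and the table as a whole had 1549 genes past the threshold in place of 4346. The log2 difference of *Nkd1* lay between -1.01 and -0.65 over 22 alternative fits, the covariate among them. In *Fzd3* mutants against controls the same covariate gave 5 of the 9 genes. The *Lef1* difference was lost in 7 of 21 alternative fits, among them those without *Celsr3* mutant library 2 or 4 or *Fzd3* mutant library 1 or 2 (limma adjusted P from 0.0870 to 0.120). Over the 21 its adjusted P ranged from 0.0172 to 0.503.

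Levels between genes were compared as CPM per kb of annotated exon. In controls the order was *Ctnnb1* (234 CPM per kb), *Nkd1* (4.51), *Axin2* (3.13), *Tcf7l1* (2.17), *Apcdd1* (1.98), *Tcf7* (1.13), *Znrf3* (0.942), *Lef1* (0.608) and *Tcf7l2* (0.523). Neighbours in that order overlapped between libraries for *Tcf7l1* and *Apcdd1*, for *Tcf7* and *Znrf3*, and for *Lef1* and *Tcf7l2*. The order of the means was the same in *Celsr3* mutants. In *Fzd3* mutants *Nkd1* (2.18 CPM per kb) ranked 4, behind *Axin2* (2.73) and *Apcdd1* (2.42), and *Tcf7l1* (0.757) ranked 7, behind *Tcf7* (1.13) and *Znrf3* (0.893).

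The 4 TCF/LEF genes were then compared as shares of their summed level per kb. Controls summed to 4.33, 4.77 and 4.21 CPM per kb, *Fzd3* mutants to 2.62, 2.32 and 3.07 and *Celsr3* mutants to 4.04, 4.55 and 5.56. *Fzd3* mutants were lower in all 3 libraries (two-sided exact permutation test, P = 0.1, the smallest possible). Of this sum *Tcf7l1* held 48.8% ± 3.97 in controls, against 28.6% ± 2.97 with *Fzd3* mutated and 46.5% ± 3.46 with *Celsr3* mutated (s.d., n = 3 each). *Tcf7* held 25.8% ± 5.33, 42.0% ± 2.88 and 29.7% ± 4.03 in the same order (s.d., n = 3 each). The most abundant family member per kb was thus *Tcf7l1* in all control and *Celsr3* mutant libraries and *Tcf7* in all *Fzd3* mutant libraries, where the CPM of *Tcf7* itself did not pass the test. The top rank of *Tcf7* there rests on the division by annotated exon length, 2.625 kb for *Tcf7* and 8.788 kb for *Lef1*. Without that division, the *Fzd3* mutant means were 3.84 CPM for *Lef1*, 3.06 for *Tcf7l2*, 2.97 for *Tcf7l1* and 2.96 for *Tcf7*. The shares of *Tcf7l1*, *Tcf7* and *Lef1* did not overlap between *Fzd3* mutants and controls (exact permutation P = 0.1 for each, the smallest possible), while that of *Tcf7l2* did (exact permutation P = 0.2). The share of *Lef1* was higher in *Fzd3* mutants (16.4% against 13.6%), although its mean level was lower (3.84 against 5.34 CPM). Shares of one sum depend on each other, so a higher share need not mean a higher level. In *Celsr3* mutants the exact permutation P was 0.2 to 1 for the 4 shares.

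**Figure D3:**
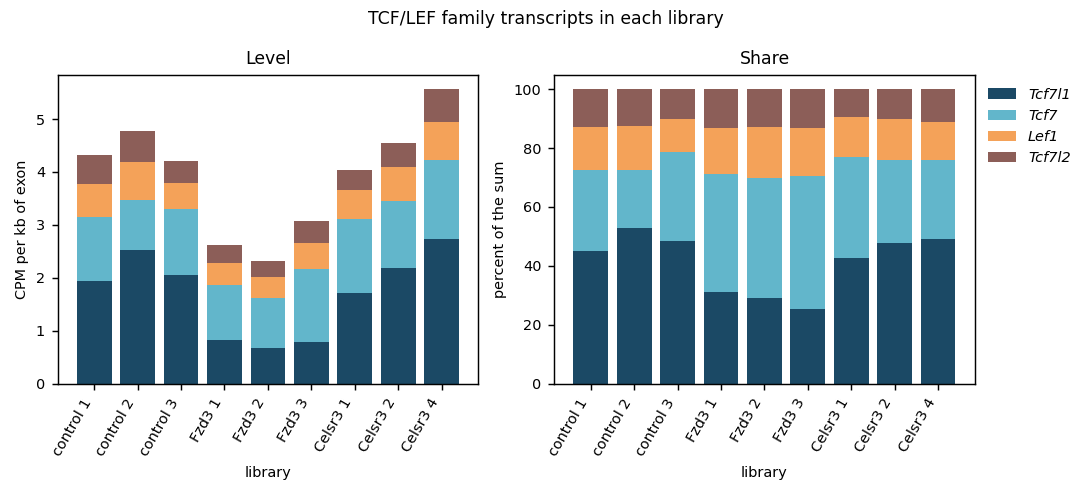
Level of the 4 TCF/LEF genes in each library, stacked, as CPM per kb of exon (left axis) and as percent of their sum (right panel). The share of *Tcf7l1* is 25.4 to 31.2% in *Fzd3* mutants and 42.6 to 52.9% in the other libraries.

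Promoter sequences were examined for every listed member with a promoter entry, whether or not its level changed. Of the 9 genes, 7 matched 13 promoter entries of RefSeq (GRCm38.p6), and *Znrf3* and *Apcdd1* are without an entry. The 250 bases before each start were searched on both strands for the TCF/LEF core motif. Its allowed forms were CTTTGAA together with CTTTGAT for an A at letter 6, while CTTTGTA together with CTTTGTT served for a T there. Of the 13 windows, 2 held a match, at a start within *Lef1* and a start within *Tcf7l2*, compared with 14.8% of all 32851 promoters and 10.2% of the 12758 promoters of listed genes. A match is a description of letters and not of a site, and nothing about binding follows from its absence in the other windows. The window of *Tcf7l1* (chr6:72789046-72789295, minus strand), the gene with the largest change, held no match and overlaps annotated exons for 209 of its 250 bases, so it is not printed.

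Shown are the windows of *Nkd1*, lower in *Fzd3* mutants, of *Axin2*, the common readout, and the 2 with a match, each outside annotated exons and read 5′ to 3′ on the gene's plus strand, with motif letters in capitals. The *Nkd1* window is chr8:88527383-88527632, inside the gene, that of *Axin2* chr11:108920099-108920348, directly upstream of the gene, that of *Lef1* chr3:131156044-131156293, inside the gene, and that of *Tcf7l2* chr19:55895071-55895320, inside the gene. The match begins 147 bases before the *Lef1* start, as TACAAAG, the reverse complement of CTTTGTA, and 14 bases before the *Tcf7l2* start.
*Nkd1*: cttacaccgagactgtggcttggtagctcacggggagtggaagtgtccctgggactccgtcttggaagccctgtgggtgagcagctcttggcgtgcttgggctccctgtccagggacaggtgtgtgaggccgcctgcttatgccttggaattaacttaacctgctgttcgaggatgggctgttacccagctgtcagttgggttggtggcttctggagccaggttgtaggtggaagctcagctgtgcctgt
*Axin2*: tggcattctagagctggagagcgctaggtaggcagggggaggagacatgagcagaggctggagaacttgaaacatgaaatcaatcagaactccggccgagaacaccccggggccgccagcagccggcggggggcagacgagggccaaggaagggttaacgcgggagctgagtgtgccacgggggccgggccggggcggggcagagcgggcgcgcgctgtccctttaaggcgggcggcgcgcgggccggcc
*Lef1*: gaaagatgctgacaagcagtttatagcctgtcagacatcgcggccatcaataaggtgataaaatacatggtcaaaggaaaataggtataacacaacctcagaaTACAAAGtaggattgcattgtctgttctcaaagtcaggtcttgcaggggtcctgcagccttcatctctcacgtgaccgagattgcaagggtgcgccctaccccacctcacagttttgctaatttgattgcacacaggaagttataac
*Tcf7l2*: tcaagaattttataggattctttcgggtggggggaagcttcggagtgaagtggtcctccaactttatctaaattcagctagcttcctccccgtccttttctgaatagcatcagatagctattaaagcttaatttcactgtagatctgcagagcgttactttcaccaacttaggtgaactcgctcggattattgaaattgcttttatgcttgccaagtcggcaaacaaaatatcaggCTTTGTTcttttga

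For the genes of the pathway around these members, 69 of 85 named genes are listed, in 5 lists. In *Fzd3* mutants 24 of the 69 passed, 11 higher and 13 lower, against 29.8% of all genes. In *Celsr3* mutants 0 passed in the limma fit, against 0.307% of all genes. An unadjusted P under 0.05 was found for 5 of the 69, compared with 800 of the 14670 genes. Among the 5 was *Jun*, at 0.51 with a limma adjusted P of 0.0545, which passed in 4 of 22 alternative fits and did not overlap with controls.

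R-spondins are secreted proteins that raise Wnt signalling by binding Lgr receptors and drawing *Znrf3* and *Rnf43* off the membrane. Of 7 such genes named, 4 are listed, and 3 rose in *Fzd3* mutants while 0 fell (median log2 fold change 1.22, all genes 0.00), against 15.0% of all genes higher. *Rspo2* stood at 3.29, 2.18 and 3.64 CPM in controls, at 11.4, 9.61 and 10.2 CPM in *Fzd3* mutants and at 4.89, 4.79 and 3.08 CPM in *Celsr3* mutants. All *Fzd3* mutants were above all other libraries (log2 fold change 1.64, s.e. 0.190, limma adjusted P = 0.000149). *Lgr4* stood at 5.49, 5.01 and 5.07 CPM in controls, at 11.1, 11.1 and 10.3 CPM in *Fzd3* mutants and at 5.34, 4.48 and 4.68 CPM in *Celsr3* mutants, again without overlap (0.99, s.e. 0.0971, limma adjusted P = 5.6e-05). *Lgr5* was near the low end of the table, where controls had 4, 25 and 17 reads, *Fzd3* mutants 62, 79 and 94 and *Celsr3* mutants 30, 32 and 39. Its log2 fold change in *Fzd3* mutants was 1.44 (s.e. 0.203, limma adjusted P = 0.000489), and at these low levels it ranged from 1.03 to 2.73 over 21 alternative fits, all of which it passed. *Rspo3* stood at 28.8, 29.9 and 23.1 CPM in controls, at 19.9, 19.7 and 23.6 CPM in *Fzd3* mutants and at 27.1, 37.3 and 33.2 CPM in *Celsr3* mutants. It did not pass against controls (log2 fold change -0.36, limma adjusted P = 0.0504) but was lower than in *Celsr3* mutants (-0.61, limma adjusted P = 0.00458).

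Of 30 other target genes of the pathway named, 20 are listed, and in *Fzd3* mutants 5 rose and 4 fell (median 0.04), against 15.0% and 14.8% of all genes. Among those that fell were *Neurog1*, a factor of neuronal commitment (-1.49, s.e. 0.245, limma adjusted P = 0.00126), and *Ccnd1*, which codes for cyclin D1 (-0.87, s.e. 0.113, limma adjusted P = 0.000320). *Myc*, which codes for a factor of growth, rose by 1.15 (s.e. 0.117, limma adjusted P = 7.4e-05), from 15.0, 10.8 and 13.7 CPM in controls to 30.6, 30.6 and 27.1 CPM. In *Celsr3* mutants *Myc* stood at 19.2, 15.7 and 16.5 CPM, all above the controls, and did not pass (0.38, limma adjusted P = 0.599). *Fgf9*, which codes for a growth factor, stood at 1.14, 1.41 and 1.45 CPM in controls and at 3.48, 2.63 and 2.37 CPM in *Fzd3* mutants (0.85, s.e. 0.206, limma adjusted P = 0.0101). *Nkd2*, the paralogue of *Nkd1*, stood at 9.67, 7.96 and 10.2 CPM in controls and at 20.1, 16.7 and 14.6 CPM in *Fzd3* mutants (0.85, s.e. 0.122, limma adjusted P = 0.000567). The paralogues thus moved in opposite directions, and the *Celsr3* mutants had 10.8, 9.74 and 10.3 CPM of *Nkd2*.

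In the destruction complex and Dishevelled list, all 17 named genes are listed, with 1 higher and 3 lower in *Fzd3* mutants (median -0.04), where 15.0% of all genes were higher and 14.8% lower. *Axin1*, the constitutive scaffold, was lower (-0.25, limma adjusted P = 0.0178), as were the Dishevelled genes *Dvl3* (-0.20, limma adjusted P = 0.0136) and *Dvl2* (-0.15, limma adjusted P = 0.0237), while *Dvl1* was higher (0.17, limma adjusted P = 0.0328). Each of these 4 calls was lost in some alternative fits, 2 of 22 for *Dvl3*, 4 for *Axin1*, 4 for *Dvl2* and 7 for *Dvl1*. Of 22 nuclear partners of beta-catenin and TCF/LEF proteins, 21 are listed, 1 higher and 4 lower (median -0.08), beside the same shares of all genes. *Smarca4*, a remodelling ATPase, fell by 0.29 on the log2 scale (limma adjusted P = 0.000532) and *Tbl1x* rose by 0.23 (limma adjusted P = 0.000961), both in 22 of 22 alternative fits. Of the other 3, *Cdc73* was at -0.23, the corepressor gene *Tle1* at -0.20 and *Ctbp1* at -0.19 (limma adjusted P from 0.00358 to 0.0265), with the call lost in 7 of 22 alternative fits for *Cdc73*, 5 for *Tle1* and 0 for *Ctbp1*. Of 9 adherens junction partners, 7 are listed, 1 higher and 2 lower (median -0.01), where 15.0% of all genes were higher and 14.8% lower. *Ctnna1*, the alpha-catenin gene, fell by 0.38 (s.e. 0.0454, limma adjusted P = 0.000174), next to a decrease of 0.16 for *Cdh2* (limma adjusted P = 0.0218, lost in 7 of 22 alternative fits) and an increase of 0.25 for *Jup*, which codes for plakoglobin (limma adjusted P = 0.00633).

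Directly between the mutants, 26 of the 69 genes passed, 12 higher and 14 lower in *Fzd3* mutants, against 29.6% of all genes. The largest log2 differences among other targets were -1.61 for *Neurog1*, 0.89 for *Fgf9*, 0.77 for *Myc* and -0.72 for *Birc5*, the survivin gene (limma adjusted P from 0.000892 to 0.00779). All 4 listed R-spondin and receptor genes passed, with *Rspo2* at 1.22, *Lgr4* at 1.09 and *Lgr5* at 1.03 beside *Rspo3*. Nuclear partners that passed included *Cdc73* (-0.28), *Smarca4* (-0.24), *Tbl1x* (0.23) and *Ctbp1* (-0.23), with limma adjusted P from 0.00108 to 0.0103. In the remaining lists *Axin1* (-0.25), *Dvl3* (-0.23), *Dvl1* (0.20), *Ctnna1* (-0.42), *Jup* (0.22) and *Cdh2* (-0.13) passed, the last with a limma adjusted P of 0.0499. Of 22 alternative fits, the call was lost in 14 for *Cdh2* (adjusted P up to 0.418), 6 for *Axin1* (up to 0.231), 4 for *Dvl1*, 4 for *Jup*, 3 for *Cdc73*, 1 for *Dvl3* and 1 for *Rspo3*, and in 2 of 21 for *Fgf9*. The difference in depth noted for the members holds for these genes as well.

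**Figure D4:**
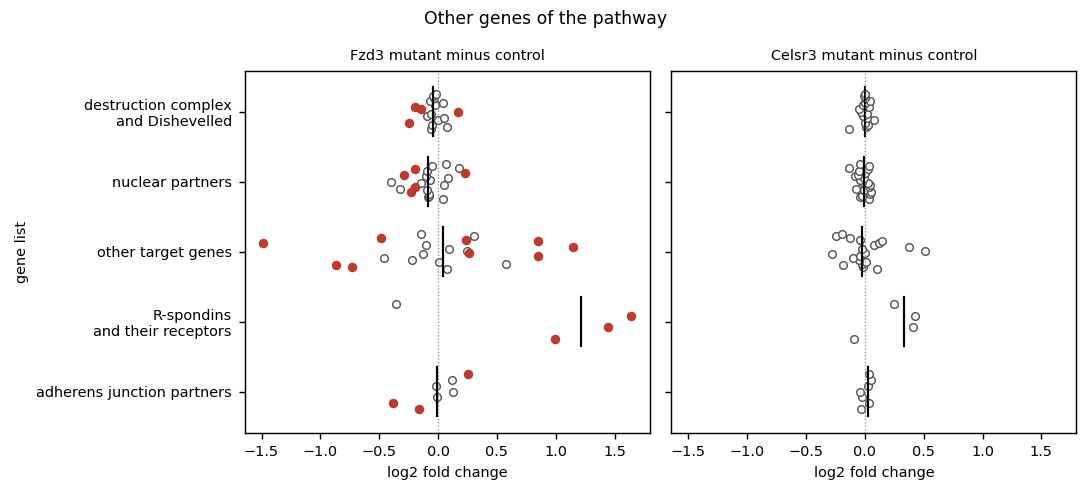
Log2 fold changes (horizontal axes) of the listed genes of 5 pathway lists in each mutant against controls. Filled points passed an adjusted P of 0.05 and vertical bars mark list medians. In *Fzd3* mutants the R-spondin list has 3 filled points above 0.9, and in *Celsr3* mutants no point is filled.

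Markers of cell types moved in the same comparison. In a bulk sample, fewer cells of a type and less RNA per cell cannot be told apart. Of 8 apical progenitor markers, all listed, 6 were lower in *Fzd3* mutants and 0 higher (median -0.59), against 14.8% lower and 15.0% higher of all genes. Their summed level was 1354, 1403 and 1371 CPM in controls, 1043, 1103 and 986 CPM in *Fzd3* mutants and 1234, 1267 and 1345 CPM in *Celsr3* mutants. The most abundant was *Fabp7* by the mean of all 9 libraries (432 CPM), although *Vim* was higher in the control mean (483 against 463 CPM) and in the *Celsr3* mutant mean (460 against 420 CPM). Of 4 basal progenitor markers, all listed, 4 were lower (median -0.71, 14.8% of all genes lower), with sums of 389, 412 and 345 CPM in controls, 219, 239 and 274 CPM in *Fzd3* mutants and 379, 431 and 437 CPM in *Celsr3* mutants, led by *Eomes*. The progenitor sums of the *Fzd3* mutants lay below all others. Their part in the lower levels of *Tcf7l1*, *Nkd1*, *Tcf7l2* and *Ctnnb1* was not tested.

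Endothelial markers, all 8 listed and led by *Slc2a1*, summed to 165, 164 and 172 CPM in controls, 237, 235 and 198 CPM in *Fzd3* mutants and 172, 157 and 205 CPM in *Celsr3* mutants, with 4 higher and 0 lower in *Fzd3* mutants, where 15.0% of all genes were higher. The 4 libraries with the highest endothelial sums, the 3 *Fzd3* mutants and *Celsr3* mutant library 4, were also the 4 highest for *Apcdd1*. Microglial markers, all 5 listed and led by *Csf1r*, summed to 29.9, 34.6 and 33.3 CPM in controls, 50.8, 48.2 and 35.9 CPM in *Fzd3* mutants and 33.5, 35.9 and 42.8 CPM in *Celsr3* mutants, with 2 higher in *Fzd3* mutants beside the same share of all genes. The part of either list in the level of *Apcdd1* was not tested. Of 7 meningeal and fibroblast markers, 5 are listed, without *Lum* and *Aldh1a2*, and 0 passed in either mutant in the fit of all 9 libraries, where library 4 adds to the spread. In *Fzd3* mutants against controls, *Dcn* passed in 3 of 21 alternative fits (limma adjusted P = 0.140 with all libraries, 0.000669 at the lowest) and *Col1a1* in 4 of 22 (0.120 and 0.00586). No defining marker listed was at 0 in a whole genotype.

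Cortical projection neuron markers, 7 of 8 listed and led by *Dcx*, summed to 5816, 5945 and 5527 CPM in controls, 5880, 5637 and 5984 CPM in *Fzd3* mutants and 5889, 5988 and 5687 CPM in *Celsr3* mutants. The sums of the 3 genotypes overlapped. Interneuron markers, all 6 listed and led by *Dlx1*, summed to 222, 224 and 245 CPM in controls, 264, 247 and 210 CPM in *Fzd3* mutants and 224, 192 and 178 CPM in *Celsr3* mutants, and 0 passed against controls. Red blood cell genes, all 6 listed and led by *Hba-a1*, ranged from 1569 to 2536 CPM over the libraries without separating genotypes. In *Fzd3* mutants 1 of 6 was lower, against 14.8% of all genes.

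Neighbouring tissue with strong Wnt activity could enter a cortical dissection. Of 7 genes of the cortical hem and hippocampal primordium, 4 are listed, without *Wnt3a*, *Wnt8b* and *Lmx1a*, and sums led by *Zbtb20* were 117, 139 and 117 CPM in controls, 115, 103 and 128 CPM in *Fzd3* mutants and 118, 134 and 119 CPM in *Celsr3* mutants. These sums overlapped, with 1 of the 4 genes, *Prox1*, higher and 1, *Emx2*, lower in *Fzd3* mutants. Of all genes, 15.0% were higher and 14.8% lower in this comparison. Thalamic markers, of which 4 of 6 are listed, without *Gbx2* and *Six3*, lay between 56.2 and 67.2 CPM in sum in all libraries, led by *Slc17a6*. In *Fzd3* mutants 1 of the 4 was higher and 1 lower, beside the same shares of all genes (15.0% and 14.8%). The higher gene is again *Prox1*, which is in both lists. Of 4 choroid plexus markers 0 are listed.

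**Figure D5:**
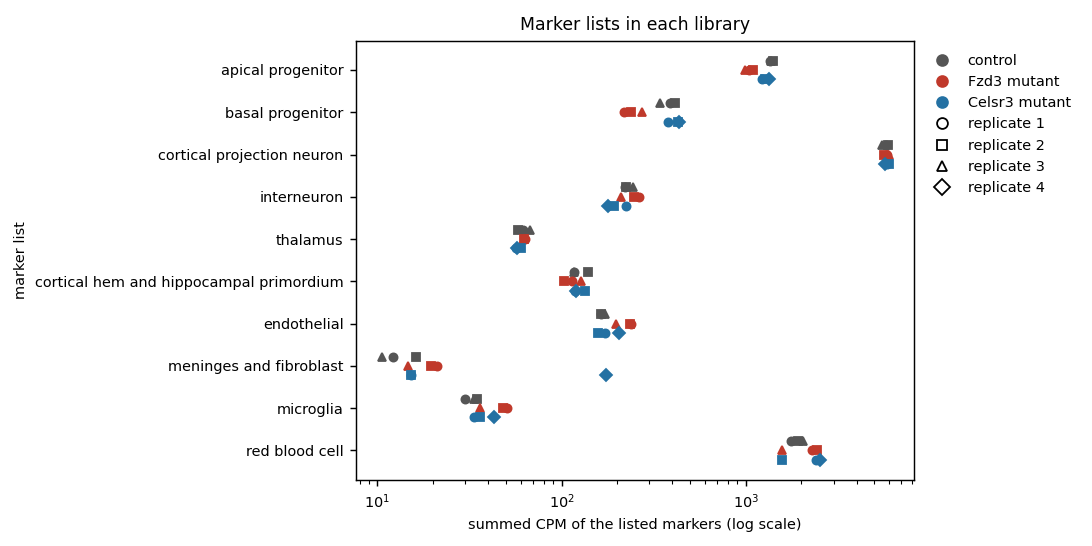
Summed CPM of the listed markers of each cell type or tissue (horizontal axis, log scale) in each library, coloured by genotype with symbols for the replicate number. Progenitor sums lie lower in the 3 *Fzd3* mutants, and *Celsr3* mutant library 4 stands at 175 CPM for meninges and fibroblasts.

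The genes with the most similar profiles over the 9 libraries were determined for *Axin2*, *Lef1* and *Tcf7l2* after genes with a mean below 5 CPM were set aside. *Axin2* was closest to the predicted genes *Gm4723*, *Gm8898* and *Gm14431*, with Pearson correlations of log2(CPM + 0.5) of 0.977, 0.973 and 0.968. Predicted genes of this kind can have near-identical copies, so their levels are uncertain. *Lef1* was closest to *Ccni* (0.985), *Gm7694* (0.985) and *Ubxn2a* (0.982), and *Tcf7l2* to *Dennd6a* (0.975), *Stag2* (0.973) and *Mllt10* (0.970). These values describe profiles over all 9 libraries, of which the *Fzd3* mutants stand apart, and carry no test. Among the members themselves, *Tcf7l1* had a Pearson correlation of 0.956 with *Ctnnb1*, 0.946 with *Nkd1*, 0.867 with *Lef1* and 0.841 with *Tcf7l2*, and *Lef1* of 0.936 with *Tcf7l2*, whereas *Apcdd1* was at -0.539 with *Tcf7l1*.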

How the data were processed

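The deposited table gives CPM values per gene. By the labels, a company prepared and sequenced the libraries by Illumina protocols. The submitters' processing notes list FastQC, TopHat, Bowtie, Cufflinks 2.1.1, TopHat2 and edgeR 2.12 and the builds GRCm38 and GRCh37. Which tool aligned or counted, with what annotation and with what regard to strand, is not given in the sources used here. The lowest gene mean was 0.540 CPM. All 9 value columns were used, and 0 were left out.

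Groups and replicate numbers came from the labels. Differences were tested on log2(CPM + 0.5) with limma 3.58.1 under R 4.3.3 (lmFit, then contrasts and eBayes with a trend), with genes of a mean of at least 0.5 CPM, which removed 0 of 14670, and with the 3 genotypes in the same fit because 3 libraries give a poor estimate of the spread. The fit was tested on simulated data. Shares and exact permutation tests used scipy 1.17.1, pandas 2.3.3 and numpy 2.4.6 under Python 3.11.15, and figures matplotlib 3.10.9. Positions and exon lengths (the union of annotated exons) came from GENCODE M21 (GRCm38), which need not be the annotation the authors used. CPM values carry no length correction, so levels between genes were compared only per kb.

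The members and all lists were chosen with earlier results of these data known. Named were the 10 members, the mutated genes, the genes of each pathway list past the threshold (at most 4 per comparison, by size) or else its most abundant gene, the most abundant gene of each marker list and any defining marker at 0, and the 3 genes most similar to *Axin2*, *Lef1* and *Tcf7l2*. *Nkd2*, *Prox1*, *Emx2*, *Vim*, *Jun*, *Dcn*, *Col1a1* and *Ulk4* were named in addition, after the values were known. As alternatives the fit was repeated with another pseudocount, filter or scaling, with fewer libraries in a fit, with replicate number as a block, with other variances or weights, and without each library. Depth as a covariate was added after seeing the data.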

Additional observations from a re-analysis of the deposited data

Results flagged for a closer look

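For 4 of the 9 genes the effects of the mutations, each taken against the same controls, differed in the direct test between *Fzd3* and *Celsr3* mutants, against 29.6% of all genes. The log2 difference, *Fzd3* mutant minus *Celsr3* mutant, was -1.38 for *Tcf7l1*, -0.89 for *Nkd1*, -0.49 for *Lef1* and -0.32 for *Ctnnb1*. *Tcf7l1* fell by 1.37 in *Fzd3* mutants and stood at 0.01 in *Celsr3* mutants, and *Ctnnb1* fell by 0.27 and stood at 0.05. *Lef1* is the exception among the 4 in that it did not pass against controls in either mutant (-0.42 and 0.07). Its value in *Celsr3* mutants ranged from -0.08 to 0.19 when each library was left out in turn. The *Fzd3* mutant libraries held fewer reads than every *Celsr3* mutant library, so depth and genotype cannot be fully told apart in this comparison. With depth as a covariate, chosen after seeing the data, *Nkd1* (limma adjusted P = 0.0844) and *Lef1* (0.503) did not pass, and *Lef1* lost its call in 7 of 21 alternative fits. Over all alternative fits, the covariate among them, the log2 difference lay between -1.01 and -0.65 for *Nkd1* and between -0.59 and -0.18 for *Lef1*.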

How the results depend on the processing

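The log2 fold changes of the 9 genes in 3 comparisons had 585 values over 22 alternative fits. Of these, 553 kept their call or lack of one, 27 lost a call, 5 gained one and 0 calls reversed. These numbers include a fit without the filter, which is the same fit because the filter removed 0 genes, and rescaling by median ratios, with factors of 0.999 to 1.003. Sizes moved more, as between the mutants with the log2 of reads as a covariate, from -0.41 to -0.08 for *Tcf7l2* and from -0.49 to -0.18 for *Lef1*. The number of the 9 genes past the threshold in *Fzd3* mutants against controls was 5, and 3 with eBayes without a trend, 3 with ordinary variances of each gene and 3 with limma voom weights, 4 with columns rescaled to a common sum and 6 with quantile normalization. A filter at 5 CPM removed *Lef1*, *Tcf7* and *Tcf7l2*, and 4 of the other 6 genes passed, as before. Leaving out each library in turn gave 3 to 5. Between the mutants it was 4, and 2 with that covariate. In *Celsr3* mutants it was 0 in all 22 fits. Among all genes, ordinary variances gave 24 in place of 45 in *Celsr3* mutants, and the covariate 1549 in place of 4346 between the mutants. The cause of these shifts was not tested.

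Same-numbered libraries did not deviate together (mean correlation of deviations -0.036, against 0.012 for other pairs). With the number as a replicate block, 29 genes passed in *Celsr3* mutants (25 of them among the 45) and 2101 between the mutants (2040 of them among the 4346). In *Fzd3* mutants against controls, 3629 genes passed with the block (3508 of them among the 4366). Of the 9 genes, 4 passed in *Fzd3* mutants with the block, where *Tcf7l2* had a limma adjusted P of 0.0572, and 4 between the mutants, where *Apcdd1* (0.0189) passed and *Lef1* (0.225) did not.

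Of 56 alternatives for the shares of TCF/LEF genes, 52 kept their direction. The share of *Lef1* in *Celsr3* mutants minus that in controls was -0.109 percentage points, 0.574 without division by length, and from -1.23 to 0.567 when each library was left out. These differences were within the spread between libraries. EdgeR's quasi-likelihood test and DESeq2, set out as alternatives on reads recovered from the CPM steps, were not run, because it is not certain that whole reads are recovered from these scaled values. The voom weights and all read numbers carry the same doubt. Low depth limits *Tcf7*, *Lef1*, *Tcf7l2* and, in *Fzd3* mutants with 123 to 160 reads, *Tcf7l1*, and 3 libraries per genotype limit every test.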

Other observations

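*Celsr3* mutant library 4, the deepest of the 9, was the highest of all libraries for 7 of the 9 genes (*Nkd1*, *Apcdd1*, *Ctnnb1*, *Lef1*, *Tcf7*, *Tcf7l1* and *Tcf7l2*), a count made after the values were seen. Among all 14670 genes, 11.0% were highest in that library. In each genotype, the deepest library was also the highest of its 3 for *Lef1*, *Tcf7l2* and *Ctnnb1*. Over the 9 genes this held for 7 in controls, for 4 with *Fzd3* mutated and for 8 with *Celsr3* mutated, and among all genes the deepest library was highest for 33.5% of them in controls, 36.3% in *Fzd3* mutants and 33.5% for the *Celsr3* genotype. Whether depth, the meningeal and fibroblast RNA of library 4 or another property of these libraries had a part in this was not tested.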
